A study of Mus musculus with 8 samples.

Results

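The 33 genes described here carry out or govern the making of cholesterol and of long-chain fatty acids. They were chosen by name, as a list of pathway members, and all 33 were present among the 23278 genes of each of the 4 deposited tables. The list was divided into 15 sterol enzymes, 5 sterol regulators and transport genes, and 13 fatty acid enzymes. RNA came from 4 groups of thymocytes of C57BL/6 mice, sorted as GFP+ CD4+ CD8+ double-positive (DP) cells, with 2 libraries in each group. DP1 cells had low surface CD5 and low TCRβ, and DP2 cells had high CD5 and intermediate TCRβ. WT control cells came from Hdac3+/+ animals, and Hdac3KO cells from Hdac3F/F animals that carried LCK-Cre, a Cre recombinase under the control of a T-lineage gene. Hdac3 encodes a histone deacetylase that works inside the NCoR and SMRT corepressors, and the study asked which transcripts change in DP cells when it is deleted. What the GFP marks, whether the WT animals carried Cre and the age of the mice are not given in the sources used here. Libraries were made from RNA pools, so the groups' libraries are pooled cells and their spread may be partly technical.

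Cholesterol synthesis starts from acetyl-CoA, runs through mevalonate and the isoprenoids to squalene, and then closes and trims the ring to give cholesterol. Fatty acid synthesis starts from the same acetyl-CoA, which is carboxylated to malonyl-CoA, built into palmitate, and then lengthened, desaturated and joined to CoA. The SREBP transcription factors, encoded by Srebf1 and Srebf2, switch on many genes of both pathways when membrane sterol is low, since Scap escorts them out of the endoplasmic reticulum and Insig1 holds them back. Dividing cells build new membrane, and most DP thymocytes are small cells that no longer divide, whereas those that receive a T cell receptor (TCR) signal go on to selection.

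Expression is given as deposited FPKM (fragments counted per length of transcript and per sequenced library), with 1 value per gene and group in each table. Each table compares 2 groups, so every group appears in 2 tables, each scaled on its own. Library totals were not used here, which leaves the depth unknown, and a single value per group shows no spread between its libraries. A gene was called higher or lower where the authors' deposited q, which comes from Cuffdiff, was 0.05 or less. Each standard error (SE) was worked back from the deposited p, and is an upper bound, written "at most", where p was at its floor of 5e-05. Because cells were sorted in bulk, fewer cells of a type and less RNA per cell cannot be told apart. Hdac3 fell in the authors' deposited tables from 38.1 to 11.7 FPKM in DP1 (q = 0.000879) and from 29.7 to 15.4 FPKM in DP2 (q = 0.0131). The genotypes also differed in sex-linked transcripts, with Xist at 0.0945 FPKM in WT DP1 and 208 in Hdac3KO DP1, and at 0.243 FPKM in WT DP2 and 139 in Hdac3KO DP2, in the authors' deposited tables. Genotype and the sex of the animals therefore cannot be told apart, and 3 of the 33 genes, Nsdhl, Ebp and Acsl4, lie on the X chromosome. In the DP1 genotype table the log2 change also followed transcript length, with a median of -0.67 among the shortest genes (the lowest 10% by length) and 0.41 among the longest 10%. In the WT stage table these medians were -0.82 and 0.09.

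The levels of the 33 genes ran from 0.179 FPKM for Scd1 in Hdac3KO DP1 to 289 FPKM for Pmvk in WT DP2, in the authors' deposited genotype tables. In each of the 3 groups other than WT DP2 the highest level among the 33 genes was that of Scd2, the stearoyl-CoA desaturase that puts the double bond into oleate. Scd2 stood at 91.5 FPKM in WT DP1, 124 in Hdac3KO DP1, 69.9 in WT DP2 and 106 in Hdac3KO DP2 in the authors' deposited genotype tables. Acly, the ATP citrate lyase that supplies cytosolic acetyl-CoA to both pathways, held 52.4 to 68.7 FPKM in those tables. The lowest level in every group was that of Scd1, the sister gene of Scd2 on chromosome 19, listed at 0.179 to 0.408 FPKM in the authors' deposited genotype tables. Acacb, the acetyl-CoA carboxylase tied to the control of fatty acid oxidation, was listed there at 0.228 to 0.916 FPKM, against 2.92 to 10.2 FPKM for Acaca, the carboxylase of fatty acid synthesis. Neither Scd1 nor Acacb was tested by the authors in any of the 4 tables. Hsd17b7, a ketosteroid reductase of the late sterol pathway, was not tested in the DP2 genotype and WT stage tables, and Elovl6 was not tested in the WT stage table. In WT DP2 the highest gene was Pmvk, phosphomevalonate kinase, which made up 72.8% of the summed FPKM of the 15 sterol enzymes there. Its share of that sum was 28.6% in WT DP1, 16.9% in Hdac3KO DP1 and 33.2% in Hdac3KO DP2.

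**Figure D1:**
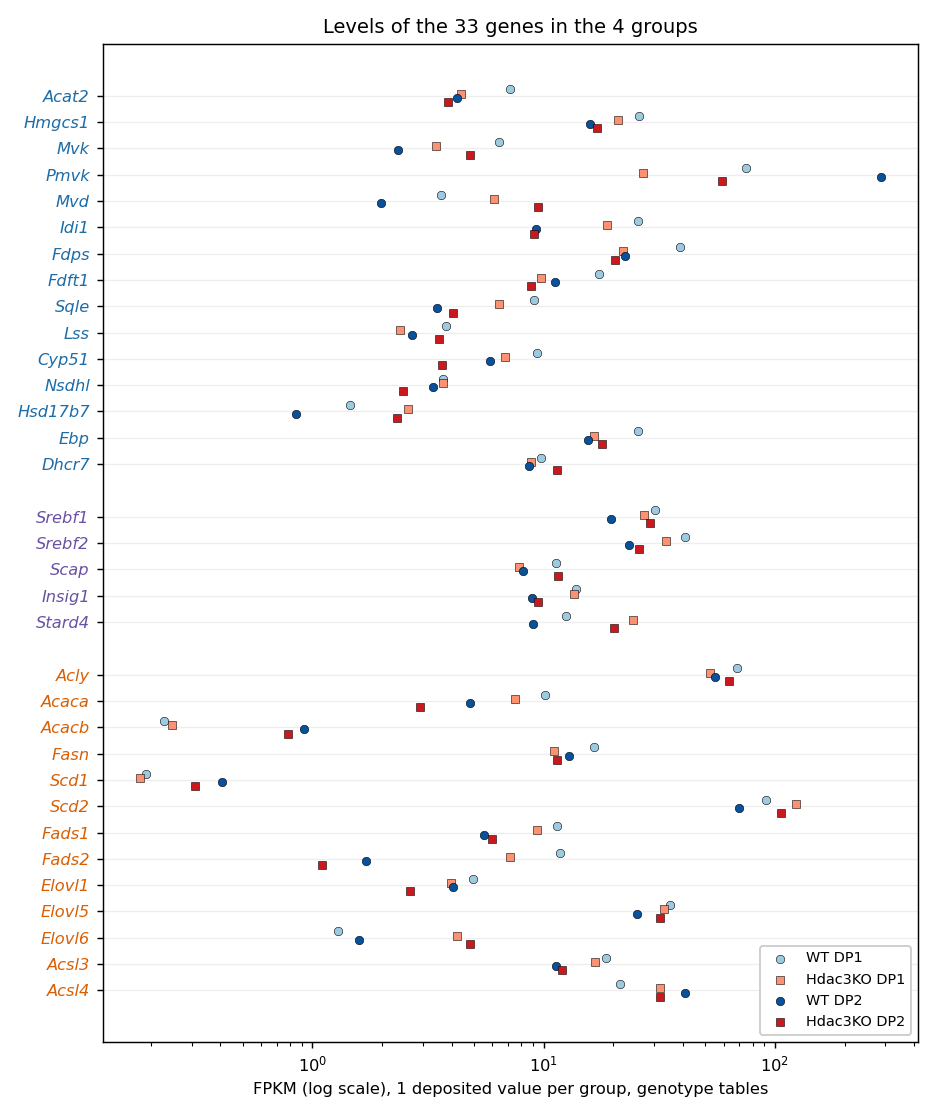
Deposited FPKM (log scale) of the 33 genes in the 4 groups, 1 point per group, from the 2 genotype tables. Sterol enzymes are named in blue, sterol regulators and transport in purple and fatty acid enzymes in orange. Pmvk spreads from 26.9 to 289 FPKM, while Scd1 and Acacb stay under 1 FPKM in all 4 groups.

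Between genotypes few of the 33 genes were called. Counting genotype and stage comparisons together, 17 of the 33 genes were called at least once and 16 never. The share of all genes called at least once was not counted. In DP1, 2 of 31 tested members were higher in Hdac3KO (Stard4 and Elovl6), beside 10.7% of all tested genes. Another 3 were lower (Mvk, Pmvk and Fdps), beside 12.9% of all tested genes, so neither count exceeded the background share. In DP2, 3 of 30 tested members were higher (Mvd, Stard4 and Elovl6), beside 6.44% of all tested genes, and 1 was lower (Pmvk), beside 4.32%. Relative to the median gene, which itself shifted by -0.11 in DP1 and 0.12 in DP2, the split was 5 higher and 2 lower in DP1, beside 13.6% and 8.94% of all genes. Mvd, Hsd17b7 and Acsl4 joined the higher members there, and Mvk left the lower ones. It was 3 higher and 2 lower in DP2, beside 4.37% and 5.71%, where Acaca (-0.84) joined Pmvk. With the trend on transcript length taken out, 3 were higher and 3 lower in DP1, beside 8.9% and 5.93% of all genes with a known length. The 3 lower ones were then Lss, Acaca and Fasn, as Mvk (-0.61, normal-test q = 0.23), Pmvk and Fdps no longer passed, and Mvd joined Stard4 and Elovl6 as higher. In DP2 3 were higher and 2 lower without that trend, beside 4.5% and 5.83%. Calls of both kinds rest on a normal test with the SE above, with q adjusted over all genes. Only 3 members passed in the same direction at both stages: Pmvk was lower, where 1.77% of genes tested in both tables were, and Stard4 and Elovl6 were higher, where 2.76% were.

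The sterol enzymes leaned downward in Hdac3KO DP1 and not in DP2. In DP1 their median log2 change was -0.51, with 13 of 15 below 0, beside a median of -0.10 over all tested genes. The fatty acid enzymes had a median of -0.29 there, with 8 of 11 below 0. Set against the median gene these medians were -0.40 and -0.17, and without the length trend -0.37 and -0.12. In DP2 the median was 0.10 for the sterol enzymes and 0.08 for the fatty acid enzymes, beside 0.10 over all tested genes. In DP1 the 5 regulators and transport genes had a median of -0.16, with 4 of 5 below 0. In DP2 their median was 0.51, with all 5 above 0. Relative to the median gene these medians were -0.05 and 0.39, with 2 of the 5 above it in DP1 and 4 in DP2. These medians are descriptions, since genes of a pathway are not replicates.

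Pmvk, which phosphorylates mevalonate phosphate, was the only sterol enzyme called lower in Hdac3KO at both stages. The gene lies at chr3:89454541-89469013 on the plus strand (GRCm38/mm10). In the authors' deposited genotype tables it stood at 75.1 FPKM in WT DP1 and 26.9 in Hdac3KO DP1, and at 289 FPKM in WT DP2 and 59.1 in Hdac3KO DP2. Both Hdac3KO values were below both WT values. Pmvk fell by 1.48 (SE at most 0.37) on the log2 scale in DP1 (deposited q = 0.000879) and by 2.29 (SE at most 0.56) in DP2 (deposited q = 0.00134). After the trend with transcript length was taken out, its DP1 change was -0.89 (normal-test q = 0.080) and no longer passed. As the SE there is an upper bound, that test cannot decide whether the DP1 call is lost. In DP2 the change stayed at -2.37 (normal-test q = 0.0020). The summed FPKM of the sterol enzymes was 396 with Pmvk and 108 without it in WT DP2, and 178 and 119 in Hdac3KO DP2, so the order of the genotypes in that sum was set by Pmvk.

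The enzymes on either side of Pmvk did not share its pattern. Mvk, mevalonate kinase, acts just before it and lies at chr5:114444269-114460591. In the authors' deposited tables Mvk was lower in Hdac3KO DP1, at 3.43 FPKM against 6.44 in WT (log2 change -0.91 ± 0.34, q = 0.038). In DP2 its deposited values ran the other way, 4.82 FPKM in Hdac3KO against 2.35 in WT, and did not pass (log2 change 1.04 ± 0.49, q = 0.17). The DP1 call was lost relative to the median gene (-0.80, normal-test q = 0.078). Mvd, the mevalonate diphosphate decarboxylase that acts just after Pmvk, lies at chr8:122433601-122443422 on the minus strand. It stood at 1.98 FPKM in WT DP2 and 9.44 in Hdac3KO DP2 in the authors' deposited table, 4.76-fold higher (log2 change 2.25, SE at most 0.56, q = 0.0013). The authors' deposited DP1 table has Mvd at 3.60 FPKM in WT and 6.12 in Hdac3KO (log2 change 0.76 ± 0.33, q = 0.074), and relative to the median gene that change passed (0.88, normal-test q = 0.038). In DP2, then, 2 successive enzymes of the mevalonate pathway were called in opposite directions.

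Further down the pathway only Fdps, the farnesyl diphosphate synthase, was called between genotypes. It stood at 38.8 FPKM in WT DP1 and 21.98 in Hdac3KO DP1 (log2 change -0.82 ± 0.27, q = 0.019), and at 22.5 and 20.4 FPKM in DP2 (log2 change -0.14 ± 0.32, q = 0.85), in the authors' deposited tables. Without the length trend the DP1 change was -0.63 (normal-test q = 0.10). The other 11 sterol enzymes, among them the starting enzymes Acat2 and Hmgcs1 and the squalene epoxidase Sqle, passed in neither genotype table. Their log2 changes in DP1 ran from -0.83 for Fdft1, the squalene synthase, to 0.82 for Hsd17b7. With the length trend removed Lss, which closes the sterol ring, passed as lower in DP1 (-0.96, normal-test q = 0.033). Fdft1 overlaps Ctsb in the annotation, and Cyp51, the lanosterol demethylase, overlaps Akap9. Each of the pairs lies on the same stretch of chromosome, and how reads there were shared out is not given in the sources used here.

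Among regulators the SREBP machinery itself was called in neither genotype table. Srebf2, which encodes the SREBP directed mainly at sterol genes, was at 40.9 FPKM in WT DP1 and 33.9 in Hdac3KO DP1 in the authors' deposited table (q = 0.45). Srebf1 was at 30.4 and 27.2 FPKM there (q = 0.85) and overlaps Rai1. Insig1, itself a sterol-regulated gene, held 13.7 and 13.6 FPKM in that deposited table (q = 0.97). The exception in this group was Stard4, a soluble protein that carries cholesterol between membranes, at chr18:33199355-33213862. Stard4 stood at 12.5 FPKM in WT DP1 and 24.2 in Hdac3KO DP1, and at 8.96 FPKM in WT DP2 and 20.1 in Hdac3KO DP2, in the authors' deposited tables. Both Hdac3KO values were above both WT values. The log2 change was 0.96 ± 0.28 in DP1 (deposited q = 0.0059) and 1.16 ± 0.37 in DP2 (deposited q = 0.020).

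In the fatty acid arm Elovl6 was called between genotypes and no other member was. Elovl6, the elongase that takes palmitate to stearate, lies at chr3:129532355-129638495 on the plus strand. It stood at 1.30 FPKM in WT DP1 and 4.21 in Hdac3KO DP1, and at 1.59 FPKM in WT DP2 and 4.78 in Hdac3KO DP2, in the authors' deposited tables. The log2 change was 1.70 (SE at most 0.42, deposited q = 0.000879) in DP1 and 1.59 ± 0.46 (deposited q = 0.0088) in DP2. All 4 values lay under 5 FPKM, and the Hdac3KO values were above the WT values at both stages. Neither of the other 2 elongases of the list passed in a genotype table. Elovl5, which lengthens polyunsaturated chains, held 25.2 to 35.1 FPKM in the authors' deposited genotype tables, and Elovl1, which overlaps Cdc20, held 2.64 to 4.96 FPKM. Fasn, the synthase that builds palmitate, was at 16.5 FPKM in WT DP1 and 11.1 in Hdac3KO DP1 (q = 0.077), and at 12.9 and 11.4 FPKM in DP2 (q = 0.73), in the authors' deposited tables. With the length trend removed the DP1 changes of Fasn (-1.07, normal-test q = 0.0012) and Acaca (-0.91, normal-test q = 0.0063) passed as lower. Scd2 gave log2 changes of 0.44 ± 0.25 in DP1 (deposited q = 0.21) and 0.61 ± 0.24 in DP2 (deposited q = 0.084).

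**Figure D2:**
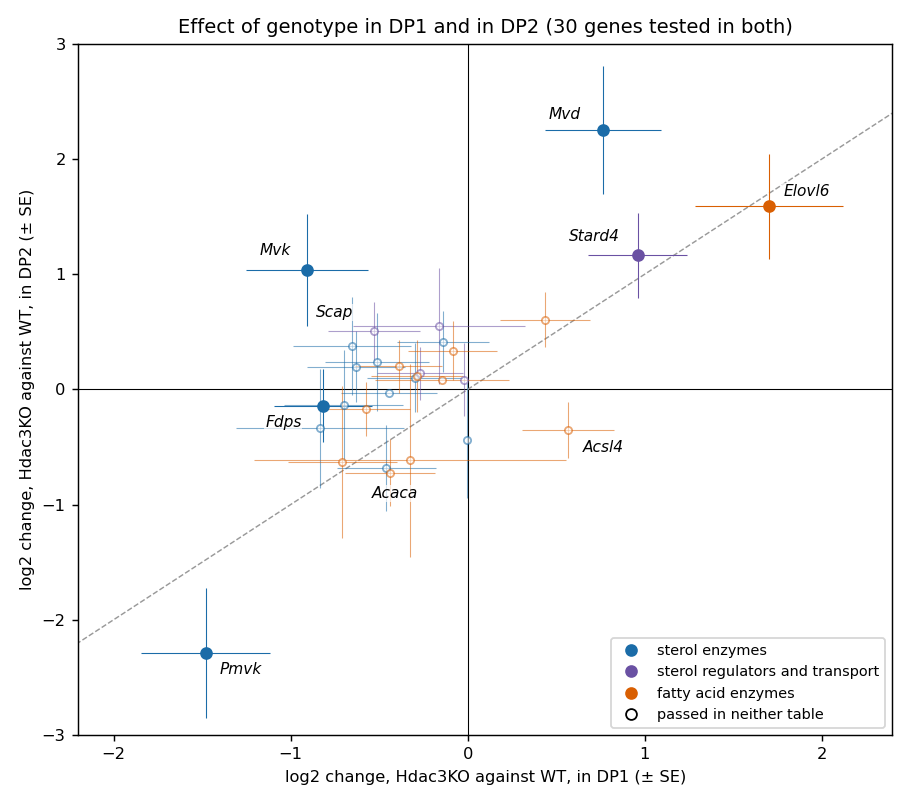
Log2 change of FPKM in Hdac3KO against WT, in DP1 (horizontal axis) and in DP2 (vertical axis), for the 30 members tested in both tables. Bars are ± 1 SE, left out where the deposited p is above 0.8, filled points passed in at least 1 table, and the dashed line marks equal change. Pmvk lies at the lower left, Elovl6, Stard4 and Mvd at the upper right, and Mvk at the upper left.

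To ask whether the genotype effect differed between the stages, its log2 change in DP1 was subtracted from that in DP2, since the 2 genotype tables share no library. With Benjamini-Hochberg adjustment over all 10144 genes, 211 genes (2.08%) passed and 0 of 30 members did, although 5 members had an unadjusted p under 0.05. When the same libraries were compared through the stage tables, 2 of 29 members passed, Mvk and Scap, beside 3.13% of all genes. Over all genes the median difference was itself 0.20 through the genotype tables and 0.30 through the stage tables. That shift and the trend with transcript length were left in these tests, and whether Mvk and Scap pass without them was not tested. Mvk had the largest difference, 1.95 ± 0.60 (normal-test q = 0.051), as its log2 change was -0.91 in DP1 and 1.04 in DP2. Scap, the SREBP escort, came next in q, with a log2 change of -0.53 in DP1 and 0.51 in DP2 and a difference of 1.04 ± 0.36 (normal-test q = 0.090). Acsl4, an acyl-CoA synthetase for arachidonate, went the other way, from 0.57 in DP1 to -0.35 in DP2 (difference -0.92 ± 0.36, normal-test q = 0.14). For Mvd the difference was 1.49 (SE at most 0.65, normal-test q = 0.18), and 1.63 ± 0.54 (normal-test q = 0.065) through the stage tables, so it passed by neither route. The difference was -0.81 (SE at most 0.67, normal-test q = 0.54) for Pmvk, 0.20 ± 0.46 (normal-test q = 0.86) for Stard4 and -0.11 (SE at most 0.62, normal-test q = 0.94) for Elovl6, and none of the 3 passed.

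More of the genes were called between DP1 and DP2, and most of those were lower in DP2. In WT 13 of 29 tested members were lower in DP2 (44.8%), beside 16.8% of all tested genes, and 1 was higher, beside 5.56%. The 13 were 7 sterol enzymes (Hmgcs1, Mvk, Idi1, Fdps, Sqle, Cyp51 and Ebp), 3 regulators (Srebf2, Scap and Insig1) and 3 fatty acid enzymes (Acaca, Fads1 and Fads2). Genes in general were lower in that table too, with the median gene at -0.33. Relative to the median gene 7 members were lower, beside 6.47% of all genes, and 2 higher, beside 10.8%. Those 7 were Mvk, Idi1, Sqle, Srebf2, Acaca, Fads1 and Fads2, and the other 6 no longer passed. In Hdac3KO, where the median gene stood at -0.01, 5 of 31 tested members were lower in DP2 (16.1%), beside 4.65% of all tested genes, and 1 was higher, beside 1.78%. Each of the 5, Idi1, Cyp51, Acaca, Fads1 and Fads2, had also fallen in WT, and 3.55% of all genes were lower, and 1.06% higher, in both stage tables. The Hdac3KO counts relative to the median gene were again 5 lower and 1 higher, beside 4.61% and 1.81% of all genes. Without the length trend 7 members were lower and 2 higher in WT, beside 4.77% and 8.48%, and 5 lower and 1 higher in Hdac3KO, beside 4.61% and 1.8%.

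The median change with stage was below 0 in every arm and both genotypes. In WT the median log2 change was -0.96 for the sterol enzymes, -0.87 for the regulators and -0.63 for the fatty acid enzymes, beside -0.27 over all tested genes. Relative to the median gene these were -0.63, -0.54 and -0.30. In Hdac3KO the medians were -0.28, -0.42 and -0.36, beside 0.01 over all tested genes. In WT 14 of 15 sterol enzymes were below 0, against 10 of 15 in Hdac3KO. Each group enters 1 genotype table and 1 stage table, so the stage changes share their libraries with the genotype changes above and are not independent of them.

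**Figure D3:**
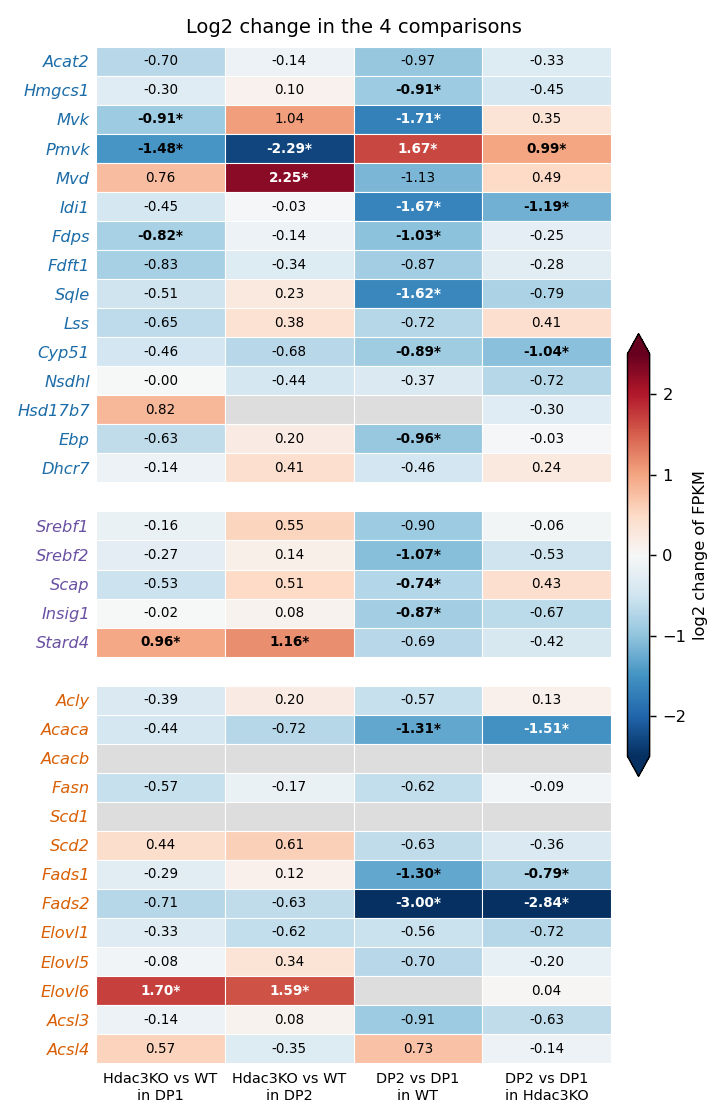
Log2 change of FPKM of the 33 genes in the 4 comparisons, with sterol enzymes, regulators and transport, and fatty acid enzymes in 3 blocks. Starred bold values passed the authors' deposited q at 0.05 and grey cells were not tested. The column for DP2 against DP1 in WT holds 13 starred negative values, and the row for Pmvk is starred in all 4 columns.

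Both desaturases of polyunsaturated fatty acids fell in both genotypes. Fads2, which makes the first double bond on the way to arachidonate, lies at chr19:10062765-10101746 on the minus strand. Fads1, which makes a later one, lies at chr19:10182888-10196877 on the plus strand, and 81141 bases separate them. Fads2 fell from 13.3 to 1.67 FPKM in WT (log2 change -2.998, SE at most 0.74, q = 0.000835) and from 7.18 to 1.001 FPKM in Hdac3KO (log2 change -2.84 ± 0.78, q = 0.0063), in the authors' deposited tables. It was the largest called change of the 33 genes in any table. Fads1 fell from 13.0 to 5.26 FPKM in WT (log2 change -1.30, SE at most 0.32, q = 0.000835) and from 9.33 to 5.40 FPKM in Hdac3KO (log2 change -0.79 ± 0.26, q = 0.037), in the authors' deposited tables. Between genotypes neither passed, with Fads2 at 11.7 FPKM in WT DP1 and 7.18 in Hdac3KO DP1 (q = 0.078) in the authors' deposited table. Acaca, which makes malonyl-CoA, fell from 11.5 to 4.65 FPKM in WT (log2 change -1.31, SE at most 0.32, q = 0.000835) and from 7.53 to 2.65 FPKM in Hdac3KO (log2 change -1.51, SE at most 0.37, q = 0.0015), in the authors' deposited tables. The authors' deposited tables list Fasn, which uses that malonyl-CoA, at 18.8 and 12.3 FPKM in WT (q = 0.088). In Hdac3KO they list it at 11.05 and 10.4 FPKM (q = 0.91). Without the length trend the WT change of Fasn passed as lower (-0.80, normal-test q = 0.033), and its Hdac3KO change did not pass.

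In the sterol arm Idi1, the isopentenyl diphosphate isomerase, fell in both genotypes. Its deposited values were 28.8 and 9.03 FPKM in WT (log2 change -1.67, SE at most 0.41, q = 0.000835) and 18.9 and 8.26 FPKM in Hdac3KO (log2 change -1.19, SE at most 0.29, q = 0.0015) in the authors' tables. The authors' deposited tables show Cyp51 falling from 10.5 to 5.65 FPKM in WT (q = 0.044) and from 6.79 to 3.29 FPKM in Hdac3KO (q = 0.015). Mvk fell in WT, from 7.36 to 2.24 FPKM (log2 change -1.71 ± 0.47, q = 0.0031), while the deposited Hdac3KO values were 3.42 and 4.37 FPKM (log2 change 0.35 ± 0.36, q = 0.75), in the authors' tables. Without the length trend the WT change of Mvk did not pass (-1.24, normal-test q = 0.057). In the same deposited tables Sqle fell in WT, from 10.3 to 3.34 FPKM (log2 change -1.62 ± 0.42, q = 0.0015), and was at 6.39 and 3.69 FPKM in Hdac3KO (q = 0.14). There Srebf2 fell in WT, from 46.7 to 22.2 FPKM (log2 change -1.07 ± 0.28, deposited q = 0.0015), and was at 33.7 and 23.4 FPKM in Hdac3KO (deposited q = 0.12). Of Mvk, Sqle and Srebf2, only Mvk gave a difference between genotypes that passed a test, by the stage tables (2.07 ± 0.59, normal-test q = 0.036). Scap gave the other (1.17 ± 0.37, normal-test q = 0.049). Both differences include the median difference over all genes, 0.30 by that route, and the length trend was left in too. The median log2 changes of the shortest and longest 10% of genes were -0.82 and 0.09 in WT, and 0.04 and -0.09 in Hdac3KO.

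Pmvk went against the other called members with stage. It rose from DP1 to DP2 in WT, from 85.7 to 273 FPKM (log2 change 1.67, SE at most 0.41, q = 0.000835), and in Hdac3KO, from 26.8 to 53.4 FPKM (log2 change 0.99, SE at most 0.24, q = 0.0015), in the authors' deposited tables. It was the only member called in all 4 tables, and the only one called higher in DP2 in both genotypes. Without the length trend the WT change was 2.42 (normal-test q = 1.06e-05). Acsl4 was the other member above 0 in WT that was tested, at 24.1 FPKM in DP1 and 39.8 in DP2 (log2 change 0.73 ± 0.30, q = 0.059) in the authors' deposited table. Relative to the median gene this change passed (1.05, normal-test q = 0.0073). The authors' deposited Hdac3KO table has Acsl4 at 32.0 FPKM in DP1 and 29.01 in DP2 (q = 0.86).

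**Figure D4:**
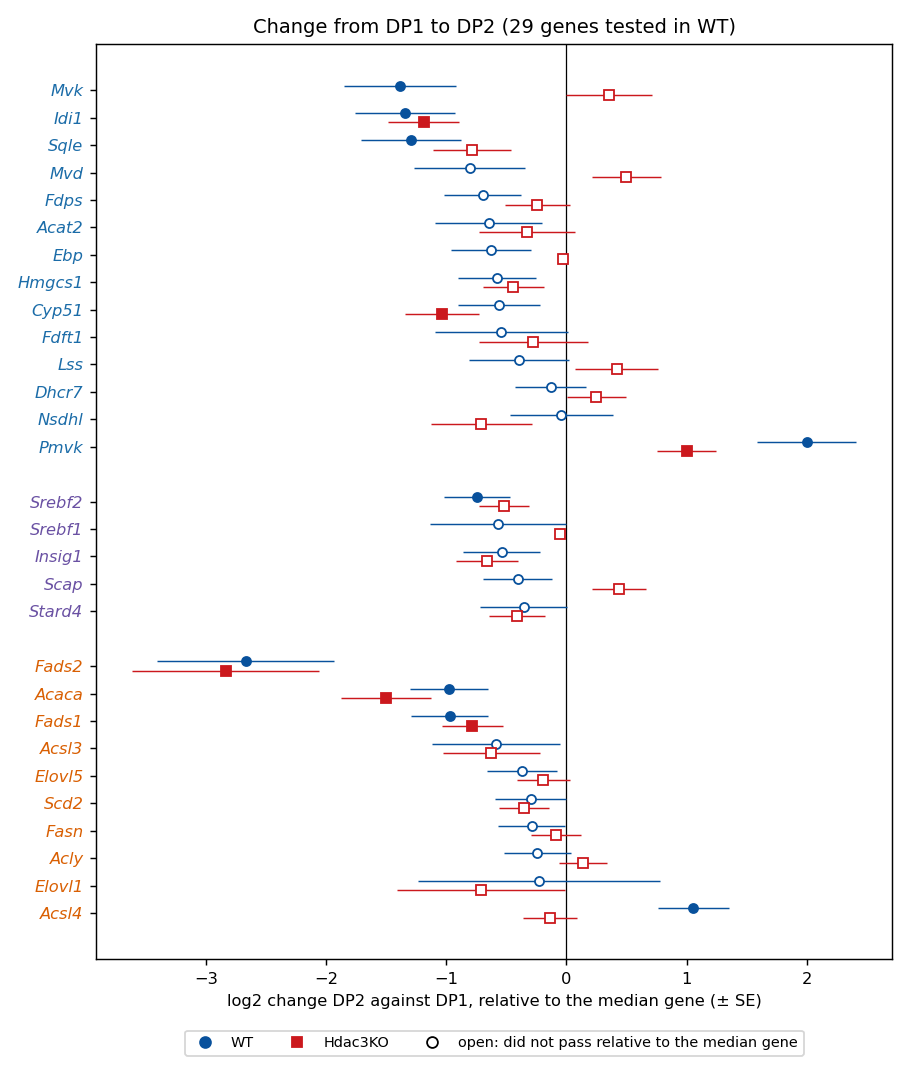
Log2 change of FPKM from DP1 to DP2, relative to the median gene, in WT (blue circles) and Hdac3KO (red squares), for the 29 members tested in WT. Bars are ± 1 SE, left out where the deposited p is above 0.8, and filled symbols passed. Fads2 lies near -2.7 in WT and -2.8 in Hdac3KO, while Pmvk is above 0 in both.

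Other genes of the pathways were taken from 2 further lists. Of 9 other sterol genes 0 passed the Cuffdiff q between genotypes in DP1, where 10.7% of all tested genes were higher and 12.9% lower, and 0 in DP2, where 6.44% and 4.32% were (1 had an unadjusted p under 0.05 in each table). In WT 2 of the 9, beside 16.8% of all tested genes, were lower in DP2 than in DP1, Lbr (log2 change -0.85 ± 0.29, deposited q = 0.024), which encodes a sterol reductase of the nuclear membrane, and Mbtps1 (-0.75 ± 0.28, deposited q = 0.037), the protease that cuts the SREBPs in the Golgi. Lbr fell from 239 to 132 FPKM and Mbtps1 from 95.02 to 56.4 FPKM there, in the authors' deposited table. Relative to the median gene neither passed, while Ggps1, which makes geranylgeranyl diphosphate, passed as higher (0.82, normal-test q = 0.041). In Hdac3KO 0 of the 9 passed the Cuffdiff q with stage (2 had an unadjusted p under 0.05).

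Of 26 other fatty acid genes 15 were tested in DP1, and 4 were lower and 1 higher in Hdac3KO, beside 12.9% and 10.7% of all tested genes. Without the length trend 2 were lower, Mid1ip1 and Acsl1, beside 5.93% of all genes. Hsd17b12 and Tecr no longer passed, and Ptplb had no length to correct for. Among the 4, Tecr, Hsd17b12 and Ptplb encode the reductases and the dehydratase that complete each round of elongation begun by an Elovl enzyme. Hsd17b12 stood at 24.2 FPKM in WT DP1 and 12.6 in Hdac3KO DP1 (q = 0.012), and at 28.0 FPKM in WT DP2 and 12.3 in Hdac3KO DP2 (q = 0.017), in the authors' deposited tables. Tecr was at 37.8 and 20.8 FPKM in DP1 (q = 0.012) and at 26.6 and 25.6 FPKM in DP2 (q = 0.94), in the authors' deposited tables. Ptplb was at 4.15 and 1.99 FPKM in DP1 (q = 0.022) and at 3.58 and 3.09 FPKM in DP2 (q = 0.83), in the authors' deposited tables. The last of the 4, Mid1ip1, which promotes the assembly of acetyl-CoA carboxylase, fell from 3.66 to 1.07 FPKM in DP1 (log2 change -1.78 ± 0.48, q = 0.0026) in the authors' deposited table. The gene that was higher was Scd4, a further stearoyl-CoA desaturase (log2 change 0.98 ± 0.37, deposited q = 0.039). Of these 26 genes 16 were tested in DP2. There 1 was lower in Hdac3KO, Hsd17b12, and 0 were higher, beside 4.32% and 6.44% of all tested genes. By the deposited q, then, Elovl6 was higher in Hdac3KO at both stages and Hsd17b12 lower at both. The DP1 call of Hsd17b12 did not hold without the length trend. With stage in WT, Mid1ip1 (-1.91), Acsl1 (-1.59) and Mcat (-1.28) were lower and Elovl4 (2.11) higher in DP2 of 17 tested, beside 16.8% and 5.56% of all tested genes. That balance turned with the scaling, to 1 lower and 4 higher relative to the median gene and to 2 and 2 without the length trend, and in Hdac3KO 0 of 13 tested passed the Cuffdiff q (0 had an unadjusted p under 0.05).

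Promoters of some of the genes are shown, so that their letters can be compared. RefSeq promoters (GRCm38.p6, 250 bases before to 50 after the start of transcription) were found for 26 of the 33 genes. Those of Pmvk, Elovl6 and Fads2 are shown because of the calls at both stages or the largest change. Stard4, also called between genotypes at both stages, had no promoter entry. Those of Mvd and Hmgcs1 are shown beside them, chosen after their values were seen. Hmgcs1 was called only with stage in WT (deposited q = 0.031), and that call was lost relative to the median gene. Capitals mark any match, on either strand, to the sterol regulatory element (TCACNCCAC), the E-box (CACGTG), the NF-Y motif (CCAAT), the Sp1 motif (GGGCGG) or the nuclear receptor hexamer (AGGTCA). None of the 5 motifs contains another. The sequences read 5′ to 3′ on the gene's own strand, and coordinates are printed from low to high. For Mvd and Fads2, on the minus strand, the letters therefore start at the higher coordinate.
Hmgcs1, chr13:119690101-119690400, plus strand: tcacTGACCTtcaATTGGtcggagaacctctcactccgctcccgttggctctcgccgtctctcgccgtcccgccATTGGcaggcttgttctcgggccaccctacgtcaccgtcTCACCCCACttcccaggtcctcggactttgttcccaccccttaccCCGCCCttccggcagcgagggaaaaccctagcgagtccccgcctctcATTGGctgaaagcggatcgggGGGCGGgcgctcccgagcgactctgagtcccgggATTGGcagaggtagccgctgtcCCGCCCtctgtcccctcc
Pmvk, chr3:89454291-89454590, plus strand: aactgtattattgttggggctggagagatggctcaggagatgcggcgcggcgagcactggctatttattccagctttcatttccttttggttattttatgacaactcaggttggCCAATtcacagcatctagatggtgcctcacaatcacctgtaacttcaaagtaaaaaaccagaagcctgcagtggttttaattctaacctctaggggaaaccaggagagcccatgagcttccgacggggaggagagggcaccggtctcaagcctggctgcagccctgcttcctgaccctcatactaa
Pmvk, second start, chr3:89459321-89459620, plus strand: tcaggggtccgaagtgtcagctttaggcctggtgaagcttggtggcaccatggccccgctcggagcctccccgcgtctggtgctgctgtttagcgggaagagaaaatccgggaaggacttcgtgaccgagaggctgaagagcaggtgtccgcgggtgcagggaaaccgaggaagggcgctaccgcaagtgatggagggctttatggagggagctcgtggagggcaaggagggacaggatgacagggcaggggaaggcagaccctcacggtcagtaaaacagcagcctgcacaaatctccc
Mvd, chr8:122443373-122443672, minus strand: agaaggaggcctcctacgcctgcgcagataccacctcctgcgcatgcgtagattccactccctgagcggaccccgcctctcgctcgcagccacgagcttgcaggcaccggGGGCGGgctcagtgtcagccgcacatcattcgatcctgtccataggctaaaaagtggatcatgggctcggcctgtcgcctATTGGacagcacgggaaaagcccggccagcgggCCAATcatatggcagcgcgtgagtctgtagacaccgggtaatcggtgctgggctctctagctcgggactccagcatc
Elovl6, chr3:129532136-129532435, plus strand: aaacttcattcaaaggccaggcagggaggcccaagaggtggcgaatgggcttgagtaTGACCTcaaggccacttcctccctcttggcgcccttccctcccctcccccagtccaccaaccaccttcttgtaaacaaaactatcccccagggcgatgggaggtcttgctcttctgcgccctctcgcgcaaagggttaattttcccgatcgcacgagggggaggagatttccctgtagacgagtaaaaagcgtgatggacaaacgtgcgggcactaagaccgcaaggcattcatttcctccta
Fads2, chr19:10101454-10101753, minus strand: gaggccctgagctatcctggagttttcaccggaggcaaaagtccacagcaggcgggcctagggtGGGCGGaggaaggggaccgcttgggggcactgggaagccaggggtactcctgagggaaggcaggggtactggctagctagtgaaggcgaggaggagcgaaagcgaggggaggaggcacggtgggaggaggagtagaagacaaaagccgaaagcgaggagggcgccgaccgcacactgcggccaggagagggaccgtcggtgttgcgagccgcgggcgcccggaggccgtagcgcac

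The sterol regulatory element in these letters was found at 1 of the 26 genes (3.85%), Hmgcs1, 137 bases before the start, and at 1.44% of all genes with a promoter entry. The CCAAT motif was found at 20 of the 26 genes (76.9%) and at 41.1% of all genes, and GGGCGG also at 20 of 26 (76.9%) and at 38.2% of all genes. The E-box was found at 5 of 26 genes (19.2%) and at 8.09% of all genes, and AGGTCA at 7 of 26 (26.9%) and at 18.1%. Genes with more than 1 promoter were counted if any of them matched. The shares of all genes include genes that were not tested here, and shares over tested genes alone were not counted. Hmgcs1, whose enzyme makes HMG-CoA, holds 4 CCAAT and 3 GGGCGG matches in its 300 bases. Mvd holds 2 CCAAT matches and 1 GGGCGG, and Pmvk holds 1 CCAAT match at its first start and none of the 5 motifs at the second. Elovl6 and Fads2 have no CCAAT match, and Elovl6 has 1 AGGTCA match 193 bases before its start. These are matches of letters, and no binding was measured.

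Other groups of genes changed between the same samples. Proliferation markers, such as the DNA polymerase clamp gene Pcna, were lower in Hdac3KO for 10 of 15 genes in DP1, beside 12.9% of all tested genes. In DP2 they were lower for 10 of 15, beside 4.32%. Without the length trend these counts were 7 in DP1 and 10 in DP2, beside 5.93% and 5.83% of all genes. From DP1 to DP2 the proliferation markers were lower for 14 of 15 in WT and 15 of 15 in Hdac3KO, beside 16.8% and 4.65%. With stage Fads2, Acaca and Idi1 fell and Pmvk rose in both genotypes, while summed proliferation FPKM fell. That sum went from 3882 to 1258 in WT and from 2180 to 609 in Hdac3KO. Between genotypes in DP2 the proliferation markers had a median log2 change of -0.95, against 0.10 for sterol and 0.08 for fatty acid enzymes. In DP1 these medians were -0.82, -0.51 and -0.29. Genes induced by TCR signals were higher in DP2 for 8 of 9 tested in WT and 7 of 8 in Hdac3KO, beside 5.56% and 1.78%. Among the 9 was Cd5, whose surface protein was used to sort the stages. The TCR-induced genes were lower in Hdac3KO for 5 of 8 tested in DP1 and 7 of 9 in DP2, beside 12.9% and 4.32%. Without the length trend 3 were lower in DP1 and 7 in DP2. All 10 DP thymocyte markers were tested in all 4 tables, and 5 of them were higher in Hdac3KO DP2, beside 6.44% of all tested genes. With stage 5 of the 10 were lower in DP2 in WT (median log2 change -0.87, summed FPKM from 5112 to 2831) and 1 in Hdac3KO (median -0.10). Of all tested genes 16.8% were lower with stage in WT and 4.65% in Hdac3KO. Relative to the median gene 1 of the 10 was lower in WT, beside 6.47% of all genes. Markers of other cells were low, with summed FPKM over the 4 groups of 6.33 to 8.99 for 5 B cell genes, 6.76 to 22.8 for 7 myeloid genes, 1.28 to 2.73 for 3 erythroid genes and 17.1 to 21.8 for 6 thymic epithelial genes, in the authors' deposited genotype tables. The myeloid range came largely from Itgam, which was higher in Hdac3KO at both stages. The authors' deposited tables list Itgam at 2.403 FPKM in WT DP1, 9.58 in Hdac3KO DP1, 1.60 in WT DP2 and 15.7 in Hdac3KO DP2. Psmb11, a thymic epithelial proteasome gene, and Alas2, an erythroid heme gene, were called higher in Hdac3KO DP1 in the authors' deposited table, from 3.21 to 7.30 FPKM (q = 0.0015) and from 0.676 to 2.51 FPKM (q = 0.012), and did not pass in DP2 (q = 0.21 and 0.79). The part of these groups in the lipid gene results was not tested. The 8 markers of adipocytes, which are rich in these enzymes, and fibroblasts summed to 0.934 to 2.09 FPKM, and none was high enough to be tested.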

How the data were processed

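Sorted double-positive thymocytes were profiled in 8 RNA samples, 2 for each of 4 groups, as ribosome-depleted stranded libraries per the labels. Tools named in the submitters' processing notes are Cuffdiff 2.1.1, TopHat2 2.0.11 and Trimmomatic 0.32, with mm10 as the genome. The deposited FPKM are 1 value per group and table. The authors' deposited p-value and q-value come from Cuffdiff, and the q-value matched a Benjamini-Hochberg adjustment of the tested genes. The authors' deposited test statistic, a score, was used in 1 alternative for the SE. The deposited log2 column was damaged, so log2 changes were computed from FPKM. SEs are the log2 change over the normal quantile of p, not given where p was above 0.8, a limit chosen after seeing the data. Differences between stages, and changes relative to the median gene (taken where both groups had 10 FPKM or more) or to a lowess trend (fraction 0.3) on GENCODE M21 transcript length, were tested with those SEs, two-sided, and adjusted over all tested genes, where a gene with no SE or no known length kept its deposited p. The procedure was tested on simulated data. Medians cover genes with at least 1 FPKM in either group. Positions and overlaps are from GENCODE M21. Software was Python 3.11.15, pandas 2.3.3, scipy 1.17.1 and statsmodels 0.14.6. Alternatives were q of 0.01 and 0.10, a log2 change of at least 1, at least 5 FPKM, adjustment over all 4 tables, a pseudocount of 1 FPKM for medians, and SEs from the statistic or multiplied by 1.5. All 33 members, other pathway genes that passed in a table, Hdac3 and sex-linked genes could be named. The members and lists were chosen with earlier results of these data known. Depth per library is unknown. Another gene of the sterol pathway is not reported here.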

Additional observations from a re-analysis of the deposited data

How the results depend on the processing

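Of 29 calls, 12 held under every alternative run, among them Pmvk and Mvd between genotypes in DP2 and Fads2 with stage in both genotypes, and no call reversed. Members higher in Hdac3KO DP1 numbered 5 at q of 0.10, 5 relative to the median gene, 1 with a log2 change of at least 1 and 1 with at least 5 FPKM. Those lower in Hdac3KO DP1 numbered 1 at q of 0.01, 6 at 0.10 and 1 with a log2 change of at least 1, and those lower in Hdac3KO DP2 numbered 2 at q of 0.10, relative to the median gene and without the length trend. In WT with stage, higher members numbered 2 at q of 0.10, relative to the median gene and without the length trend, and lower ones 7 at q of 0.01, 8 with a log2 change of at least 1, 7 relative to the median gene and 7 without the length trend. The WT median of fatty acid enzymes became -0.30 relative to the median gene. In Hdac3KO with stage, 0 members were higher with a log2 change of at least 1, and 3 were lower at q of 0.01. Differences between stages passed for 2 members through the stage tables, 1 with SEs from the statistic (Acsl4) and 2 at a threshold of 0.10. The cause of these shifts was not tested. No paired analysis was possible because each table gives 1 value per group, and for the same reason leaving out a library was not run.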

Other observations

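The genes next to the 3 mevalonate kinase and decarboxylase genes were looked up, a choice made after their values were seen. Of 9 tested genes within 50 kb of Mvd, 2 were also higher in Hdac3KO DP2 in the authors' deposited table. Of all tested genes 6.44% were higher there. An unadjusted p under 0.05 was found for 6 of the 9, a share not counted over all genes. Cyba, which encodes a subunit of the phagocyte oxidase and lies at chr8:122424771-122432940 just past the end of Mvd, was at 28.98 FPKM in WT DP2 and 66.1 in Hdac3KO DP2 in that deposited table (log2 change 1.19, q = 0.0013). Snai3, a zinc finger gene on the other side, at chr8:122454206-122460692, was at 1.87 FPKM in WT DP2 and 9.28 in Hdac3KO DP2 in the authors' deposited table (log2 change 2.31 ± 0.61, q = 0.0034). In DP1 Snai3 was higher too (log2 change 1.46 ± 0.37, deposited q = 0.0015). It was the only 1 of the 9 called there, beside 10.7% of all tested genes called higher.

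Of 5 tested genes within 50 kb of Pmvk, 0 were called between genotypes in DP2 by the authors' deposited Cuffdiff q at 0.05. Of all tested genes 6.44% were higher and 4.32% lower there. An unadjusted p under 0.05 was found for 0 of the 5, where Pmvk fell by 2.29 on the log2 scale. In DP1, where Pmvk also fell, 1 of the 5 was called lower, beside 12.9% of all tested genes. This was Cks1b, a cell cycle kinase subunit gene (log2 change -1.09 ± 0.32, deposited q = 0.0059). With stage in WT, Cks1b and Shc1, an adaptor gene of receptor signalling, were lower in DP2 (log2 changes -2.19 and -0.89), while Pmvk was higher. Of all tested genes 16.8% were lower with that stage change. Of 2 tested neighbours of Mvk, Mmab, a gene of cobalamin metabolism adjacent to the start of Mvk, fell in WT with stage by 1.38 on the log2 scale (deposited q = 0.015), as Mvk did by 1.71.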
